A study of Mus musculus with 40 samples.

Results

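The PI3K-AKT pathway and its inhibitory regulators were followed in mouse CD4+ T cells through 9 transcripts: Pik3cd, Pik3r1, Pik3ip1, Inpp4b, Akt1, Akt2, Phlpp1, Ddit4 and Tsc1. They were taken from the RNA-seq table by gene symbol and these members are 9 of the 21950 genes listed. The table held 24 libraries in 8 groups of 3. Conventional T cells (Tconvs) were profiled resting and activated. Thymus-derived regulatory T cells (tTregs, labelled nTreg) were also profiled resting and activated. Induced regulatory T cells (iTregs) were profiled resting, restimulated, restimulated with an inhibitor of the ORAI calcium channel, and restimulated with cyclosporin A (CsA), an inhibitor of the phosphatase calcineurin. The cells were sorted from spleens of Foxp3 reporter mice on a C57BL/6 background, with no gene deleted. Tconvs and tTregs came from mice aged 2 to 4 months, and iTregs were made from naive T cells of mice aged 6 weeks. Naive cells were cultured for 4 days with antibodies to CD3 and CD28, human TGF-β and IL-2, sorted for Foxp3 reporter fluorescence, and rested for 1 day in IL-2. Age and culture therefore differed together between iTregs and the other cells and cannot be told apart from cell type. The label of the ORAI inhibitor libraries names no compound, and the study's text describes iTregs restimulated with CsA or with CM-4620, a blocker of this channel. The labels give neither the length of stimulation nor the inhibitor doses.

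PI3K is a lipid kinase that is recruited to the membrane after engagement of the T cell receptor, CD28 and cytokine receptors. Its catalytic subunit, which in lymphocytes is chiefly p110δ, is held and targeted by a regulatory subunit such as p85α. The lipid it makes recruits AKT kinases, which drive mTORC1 and keep FOXO transcription factors out of the nucleus. Brakes act at each level: a transmembrane inhibitor binds the kinase, lipid phosphatases remove its products, protein phosphatases reverse AKT phosphorylation, and the TSC complex restrains mTORC1. Regulatory T cells are known for restrained PI3K-AKT signalling, and strong AKT activity is known to oppose the induction of Foxp3.

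In GENCODE M21 on GRCm38, all 9 were protein-coding genes. The catalytic subunit gene Pik3cd lay at chr4:149649168-149702571 on the minus strand, and the regulatory subunit gene Pik3r1 lay at chr13:101680563-101768217 on the minus strand. Pik3ip1 lay at chr11:3330401-3342971 on the plus strand, and Inpp4b at chr8:81342556-82127914 on the plus strand. Akt1 lay at chr12:112653821-112674884 on the minus strand, and Akt2 at chr7:27591552-27640826 on the plus strand. Phlpp1 lay at chr1:106171752-106394250 on the plus strand, Ddit4 at chr10:59949669-59951834 on the minus strand, and Tsc1 at chr2:28641228-28691167 on the plus strand. The values counted reads over each gene's exons, introns and flanks excluded. Pik3ip1 shared 91 of its 4272 exon bases (2.13%) with the antisense gene Gm12592, and reads there cannot be assigned to a strand because the library method does not keep it. The other 8 shared no exon base with another annotated gene.

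Sequence from RefSeq promoter windows is shown for the 3 members whose levels varied most among the 8 groups. RefSeq windows on GRCm38.p6 matched all 9 members, and the 250 bases upstream of each RefSeq start were searched on both strands for a FOXO site (GTAAACA), an NFAT site (TGGAAA), an AP-1 site (TGANTCA) and the hypoxia element (ACGTG). A RefSeq start can differ from the outermost start in GENCODE. The Ddit4 window was chr10:59951771-59952020 on the minus strand, and its end nearest the RefSeq start lay within the gene as GENCODE draws it. The Pik3ip1 window was chr11:3330481-3330730 on the plus strand, and all of it lay within the GENCODE gene, downstream of its outermost start. For Ddit4 and Phlpp1 the bases outside the GENCODE gene are shown, and for Pik3ip1 a stretch inside it. Ddit4 is shown from chr10:59951835-59952020 on the minus strand, 186 bases, with the hypoxia element in capitals. Phlpp1 is shown from chr1:106171619-106171751 on the plus strand, 133 bases, which held no match to the 4 motifs. Pik3ip1 is shown from chr11:3330568-3330597 on the plus strand, 30 bases around the NFAT letters in capitals.
Ddit4: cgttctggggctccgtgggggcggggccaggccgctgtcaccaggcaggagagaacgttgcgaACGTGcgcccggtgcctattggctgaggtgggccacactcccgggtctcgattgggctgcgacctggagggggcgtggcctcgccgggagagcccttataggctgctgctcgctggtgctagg
Phlpp1: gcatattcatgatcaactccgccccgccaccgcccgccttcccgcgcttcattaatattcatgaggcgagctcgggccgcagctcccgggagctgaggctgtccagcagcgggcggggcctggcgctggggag
Pik3ip1: tactcacactggTGGAAAaggaagaaaagc

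The NFAT letters of Pik3ip1 started 151 bases before the RefSeq start that ends its window, which places them inside the gene as GENCODE draws it, and 18.6% of all 32851 windows held such a match. The hypoxia element of Ddit4 started 187 bases before the RefSeq start and occurred in 16.6% of all windows. That element was also present upstream of Inpp4b and Akt2. For Pik3cd it lay before an alternative RefSeq start, inside the gene as GENCODE draws it. Akt1 held a FOXO match, which 3.17% of windows held, and an NFAT match, and an alternative start of Akt2 held an NFAT match. The AP-1 letters, present in 6.75% of windows, were not found for any member, and Phlpp1, Pik3r1 and Tsc1 had no match. A match of letters is a description and not evidence of binding.

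Reads assigned to genes numbered 5256800 to 15685234 per library (median 10801942), with 5256800 to 9893053 in the 6 tTreg libraries and at least 9808711 in the others. All 9 members had at least 10 reads in every library and passed the filter on low values in all tests. Replicate libraries differed by 2.69 to 36.3 times the counting variance, so none was a copy of another. The labels do not say whether replicates came from separate mice or cultures, so p-values measure the spread between these libraries, which may be technical. Foxp3 averaged 10.4 normalized counts in resting Tconvs, 7537 in resting tTregs and 1280 in resting iTregs. The 4 proliferation markers (Mki67, Top2a, Ccna2 and Cdk1) summed to 98.5 to 112 in resting Tconvs, 252 to 317 in resting tTregs and 18134 to 22694 in the iTreg groups. In bulk RNA, fewer cells expressing a gene and less RNA per cell cannot be told apart.

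Values are normalized counts, that is, estimated reads per gene divided by 1 scaling factor per library, and each trio below gives libraries 1, 2 and 3 of a group. Fold changes are differences of log2(normalized count + 1) from limma over all genes, with Benjamini-Hochberg adjusted p. A gene was called when the adjusted p was below 0.05 and the log2 fold change beyond 0.5 in either direction. Comparisons with resting Tconvs shared those 3 libraries, and both inhibitor comparisons shared the 3 restimulated iTreg libraries without inhibitor, so such comparisons are not independent of each other.

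**Figure D1:**
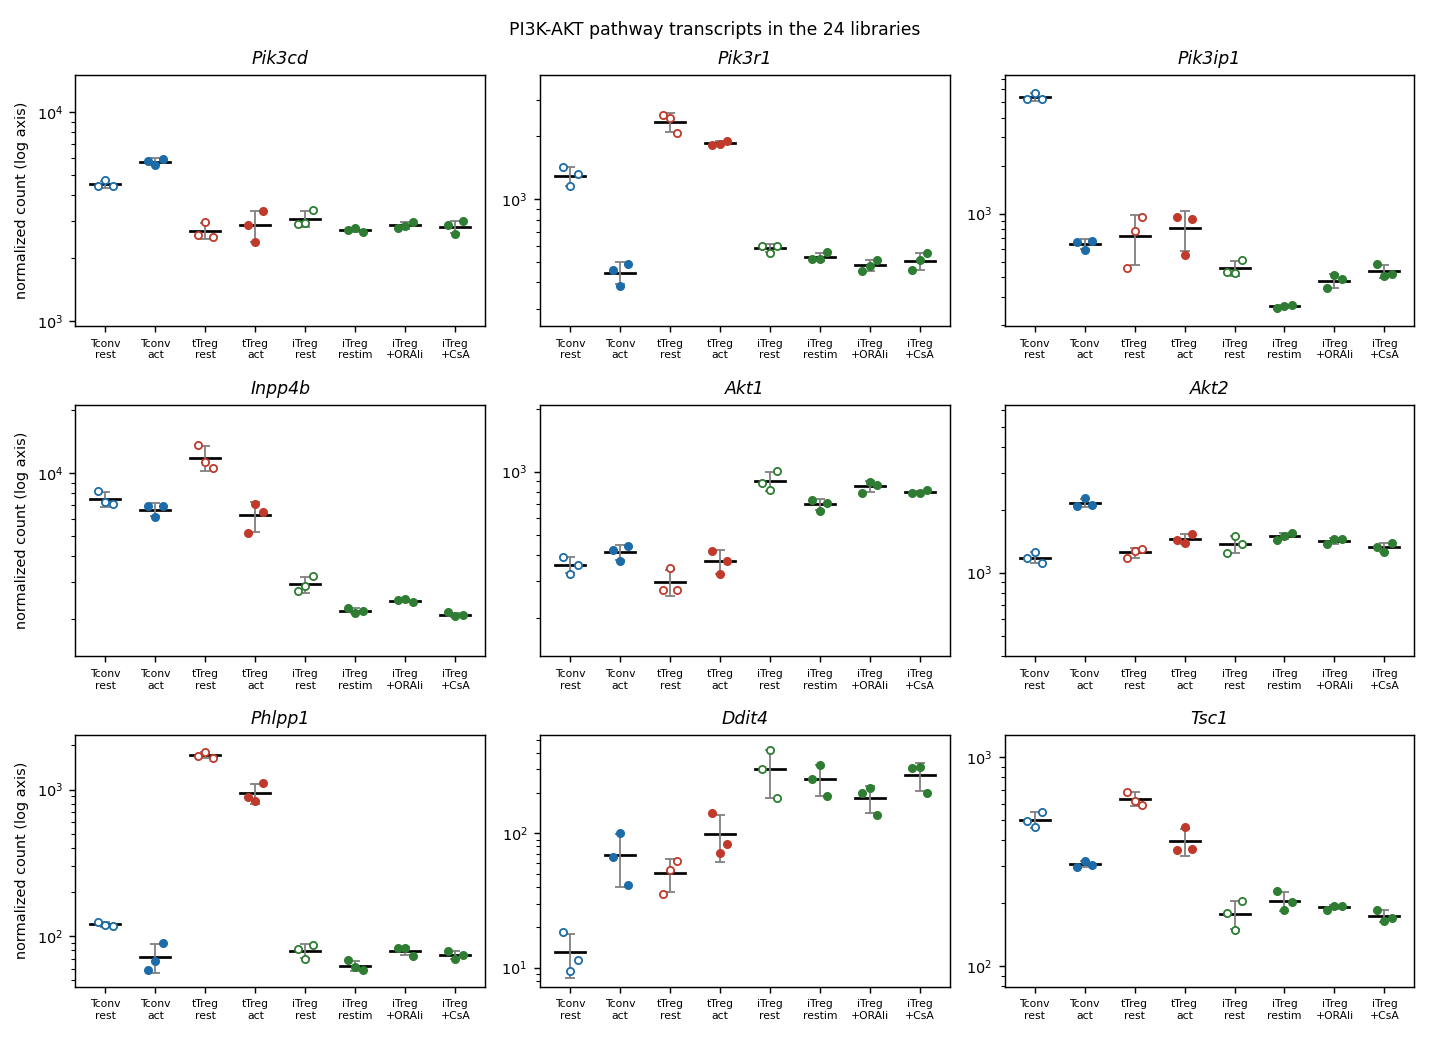
Normalized counts (log axis) of the 9 transcripts in each of the 24 libraries, grouped by cell type and condition (rest, resting; act, activated; restim, restimulated; ORAIi, ORAI inhibitor), with points for libraries, black lines for group means and grey bars for ± 1 SD. Phlpp1 lay between 836 and 1814 in the 6 tTreg libraries and between 59.0 and 125.5 in the other 18, while Pik3ip1 lay between 5191 and 5719.6 in resting Tconvs and between 257 and 956 elsewhere.

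Pik3cd, which encodes the catalytic subunit p110δ, was one of the steadier members. Its normalized counts were 4423.5, 4710.4 and 4418 in resting Tconvs and 5816, 5580.3 and 5977 in activated Tconvs. They were 2591, 2981 and 2527 in resting tTregs and 2863, 2386 and 3344 in activated tTregs. The 6 Tconv libraries lay above all 18 Treg libraries, and the tTreg and iTreg ranges overlapped. In the 12 iTreg libraries Pik3cd ranged from 2614 to 3405. Resting tTregs differed from resting Tconvs by -0.75 ± 0.11 (SE, adjusted p = 4.34e-05), and activated tTregs from activated Tconvs by -1.03 ± 0.11 (SE, adjusted p = 1.42e-06). Resting iTregs differed from resting Tconvs by -0.55 ± 0.11 (SE, adjusted p = 3.06e-04) and from activated Tconvs by -0.91 ± 0.11 (SE, adjusted p = 5.15e-06). Without the libraries numbered 2, the first of these was -0.49, adjusted p = 0.0030, and it missed the fold threshold. Pik3cd was not called on activation of Tconvs (0.36, adjusted p = 0.010, under the fold threshold), of tTregs (0.08, adjusted p = 0.62) or on restimulation of iTregs (-0.18, adjusted p = 0.062).

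Pik3r1, which encodes the regulatory subunit p85α and shorter isoforms, was highest in tTregs and fell on activation of Tconvs. Resting Tconvs held 1422, 1154 and 1319 normalized counts and activated Tconvs 461.5, 386 and 491. Every resting Tconv library was above every activated one, and the change was -1.54 ± 0.10 (SE, adjusted p = 9.78e-09). In tTregs the values were 2532, 2446 and 2073 at rest and 1825, 1838 and 1904 after activation. Those groups also did not overlap, but their difference of -0.34 (adjusted p = 0.023) missed the fold threshold. The Tconv minus tTreg difference in response was -1.20 ± 0.15 (SE, adjusted p = 1.74e-05). Pik3r1 was higher in tTregs than in Tconvs both at rest (0.86, adjusted p = 7.83e-06) and after activation (2.06, adjusted p = 7.22e-10).

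Resting iTregs held 598, 554 and 598 normalized counts of Pik3r1. This was -1.15 ± 0.10 (SE, adjusted p = 1.16e-07) relative to resting Tconvs and -2.005 ± 0.10 (SE, adjusted p = 2.71e-10) relative to resting tTregs, with no overlap in either case. Against activated Tconvs the difference was 0.39 (adjusted p = 0.0054), under the fold threshold. Across all 12 iTreg libraries Pik3r1 stayed between 455 and 598.

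Pik3ip1, a transmembrane protein that binds the PI3K catalytic subunit and inhibits it, was by far highest in resting Tconvs and fell 8.38-fold there on activation. Its normalized counts were 5255.5, 5719.6 and 5191 in resting Tconvs (mean 5389 ± 288.4, SD, n = 3). They were 666, 589.9 and 673 in activated Tconvs (mean 643 ± 46.1, SD, n = 3). No activated library came near a resting one, and the log2 fold change was -3.07 ± 0.23 (SE, adjusted p = 2.61e-08). In tTregs the values were 454.5, 782.4 and 946.5 at rest and 956, 553.5 and 921 after activation. These overlapped, with a coefficient of variation of 34.4% and 27.5%, against 2.31% to 11% in the other 6 groups. The tTreg difference was 0.18 with a 95% interval of -0.31 to 0.67 (adjusted p = 0.58). The response in Tconvs was lower than that in tTregs by 3.24, as a log2 difference of -3.24 ± 0.32 (SE, adjusted p = 2.19e-06).

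At rest, Pik3ip1 was lower in tTregs than in Tconvs (-2.95 ± 0.23 SE, adjusted p = 5.88e-08) and lower in iTregs than in Tconvs (-3.56 ± 0.23 SE, adjusted p = 2.13e-09). Resting iTregs held 433, 423 and 514 normalized counts. Their difference from resting tTregs was -0.61 ± 0.23 (SE, adjusted p = 0.026), but the libraries of these groups overlapped. That call was lost without the libraries numbered 2 (-0.47, adjusted p = 0.15) and without those numbered 3 (-0.48, adjusted p = 0.15). In the order of group means, activated tTregs, resting tTregs and activated Tconvs, at 810.2, 728 and 643, overlapped as neighbours. The 3 NK cell markers (Ncr1, Klrb1c and Klrd1), of which Klrd1 made up most, summed to 420 to 426 in resting Tconvs, 15.3 to 23.3 in activated Tconvs, 0 in all tTreg libraries and 24.2 to 124 in iTreg libraries, and were thus also highest in resting Tconvs. Their part in the Pik3ip1 differences was not tested.

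Pik3ip1 was the only member called on restimulation of iTregs and with each inhibitor. Restimulated iTregs held 257, 264.5 and 269 normalized counts, all below the resting libraries, a change of -0.79 ± 0.10 (SE, adjusted p = 2.71e-05). With the ORAI inhibitor the values were 342, 414 and 389, and with CsA they were 481, 404 and 421. All 6 inhibitor-treated libraries lay above all 3 restimulated libraries without inhibitor. The difference was 0.53 ± 0.10 (SE, adjusted p = 0.0034) for the ORAI inhibitor, with a 95% interval of 0.32 to 0.74. It was 0.72 ± 0.10 (SE, adjusted p = 4.01e-04) for CsA, with a 95% interval of 0.51 to 0.93. The ORAI inhibitor call was lost without the libraries numbered 2 (0.47, adjusted p = 0.11) and when all 24 libraries shared 1 fit (adjusted p = 0.19). The CsA call held in each of these, but only narrowly in the shared fit (adjusted p = 0.049). The inhibitor groups overlapped each other, with an ORAI inhibitor minus CsA difference of -0.19 (95% interval -0.40 to 0.02, adjusted p = 0.49). All 3 ORAI inhibitor libraries lay below all 3 resting iTreg libraries, while the CsA libraries overlapped the resting ones. In the fit of all 24 libraries, the difference from resting iTregs was -0.26 ± 0.20 (SE, adjusted p = 0.49) with the ORAI inhibitor. It was -0.07 ± 0.20 (SE, adjusted p = 0.88) with CsA and -0.79 ± 0.20 (SE, adjusted p = 0.0072) without inhibitor. The SE in that fit was larger than in the fit of the iTreg groups, so these values do not show a return to the resting level.

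**Figure D2:**
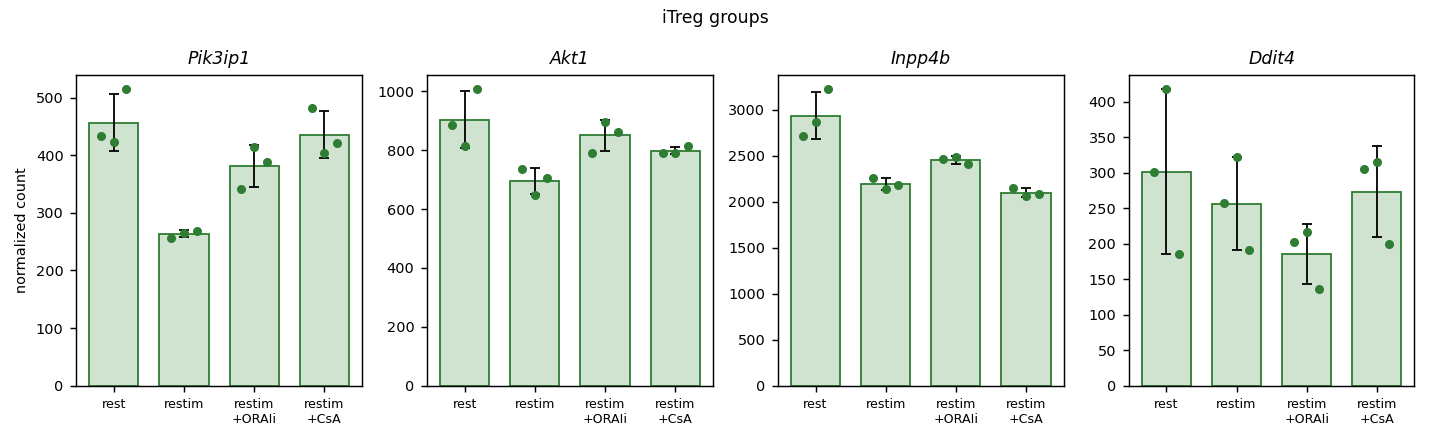
Normalized counts of Pik3ip1, Akt1, Inpp4b and Ddit4 in the 4 iTreg groups (rest, resting; restim, restimulated; ORAIi, ORAI inhibitor), with bars for means, points for the 3 libraries and error bars for ± 1 SD. Pik3ip1 averaged 457 at rest, 263 after restimulation, 381 with the ORAI inhibitor and 435 with CsA, and the Ddit4 libraries spread widely within every group.

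Inpp4b, a lipid phosphatase that acts on a product of PI3K, was highest in resting tTregs and lowest in iTregs. Its normalized counts were 8231, 7261 and 7079.6 in resting Tconvs and 6937, 6138 and 6956 in activated Tconvs. They were 13669.5, 11264 and 10616.5 in resting tTregs and 5148, 7139 and 6488 in activated tTregs. The resting tTreg libraries exceeded all others, and activated tTregs overlapped activated Tconvs. Activation of tTregs changed Inpp4b by -0.93 ± 0.12 (SE, adjusted p = 7.92e-05). In Tconvs the difference was -0.17 (adjusted p = 0.25), and the Tconv minus tTreg difference in response was 0.75 ± 0.18 (SE, adjusted p = 0.0034). Resting tTregs were above resting Tconvs by 0.65 ± 0.12 (SE, adjusted p = 4.98e-04).

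Resting iTregs held 2716, 2866 and 3220.2 normalized counts of Inpp4b, below every Tconv and tTreg library. Their difference was -1.36 ± 0.12 (SE, adjusted p = 1.17e-07) from resting Tconvs, -1.19 (adjusted p = 1.36e-06) from activated Tconvs and -2.01 (adjusted p = 1.70e-09) from resting tTregs. After restimulation the values were 2259, 2133 and 2184. These did not overlap the resting ones, but the difference of -0.42 (adjusted p = 1.21e-04) missed the fold threshold. Inpp4b was 2464, 2485 and 2404 with the ORAI inhibitor and 2151.5, 2057 and 2086 with CsA. Those groups did not overlap and differed by 0.22 (95% interval 0.09 to 0.35, adjusted p = 0.13), which was not called.

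Akt1, the broadly expressed AKT kinase, was higher in iTregs than in any other group. Resting Tconvs held 389, 325.5 and 357 normalized counts and activated Tconvs 421, 373.5 and 441.5. Resting tTregs held 271, 346.5 and 272 and activated tTregs 419, 323.6 and 374. The 12 libraries of these groups lay between 271 and 441.5, and Akt1 was not called on activation of Tconvs (0.21, adjusted p = 0.18) or tTregs (0.33, adjusted p = 0.061). Resting iTregs held 886, 815 and 1007, above every Tconv and tTreg library. The difference was 1.33 ± 0.13 (SE, adjusted p = 2.13e-07) from resting Tconvs, 1.13 ± 0.13 (SE, adjusted p = 3.31e-06) from activated Tconvs and 1.61 ± 0.13 (SE, adjusted p = 2.99e-08) from resting tTregs. After restimulation Akt1 was 735, 649 and 705, and the difference of -0.37 (adjusted p = 0.0028) missed the fold threshold. It was 792, 896 and 863 with the ORAI inhibitor, a difference from restimulated cells of 0.29 (adjusted p = 0.039), also under the fold threshold. With CsA it was 792, 790.2 and 813, a difference of 0.20 (adjusted p = 0.15). All inhibitor-treated libraries lay above all restimulated libraries without inhibitor. The proliferation markers, given above, were also highest in iTregs, and their part in the Akt1 difference was not tested.

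Akt2, the AKT kinase best known for insulin signalling, had the narrowest range of the 9 members and was highest in activated Tconvs. Its normalized counts were 1179, 1250.3 and 1115 in resting Tconvs and 2089, 2268 and 2111 in activated Tconvs. The activated Tconv libraries exceeded all other 21 libraries, with a rise of 0.87 ± 0.08 (SE, adjusted p = 3.41e-07). The values were 1172, 1275.5 and 1302 in resting tTregs and 1426, 1391 and 1531 in activated tTregs, a difference of 0.21 (adjusted p = 0.057). The Tconv minus tTreg difference in response was 0.65 ± 0.12 (SE, adjusted p = 4.64e-04). Resting iTregs held 1246, 1500.2 and 1365, and differed from activated Tconvs by -0.66 ± 0.08 (SE, adjusted p = 8.82e-06). Their difference from resting Tconvs was 0.21 (adjusted p = 0.031), under the fold threshold. Apart from activated Tconvs, all libraries lay between 1115 and 1544 normalized counts.

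Phlpp1, a protein phosphatase that removes an activating phosphate from AKT, was the member with the widest range and was high in tTregs. Its normalized counts were 1703, 1814 and 1641 in resting tTregs (mean 1719 ± 87.6, SD, n = 3) and 885, 836 and 1104 in activated tTregs. They were 125.5, 120.1 and 117 in resting Tconvs and 59.3, 68.1 and 90.6 in activated Tconvs. All 6 tTreg libraries were far above all other libraries. Resting tTregs exceeded resting Tconvs 14.2-fold (3.82 ± 0.15 SE, adjusted p = 2.59e-11) and resting iTregs 21.6-fold (iTreg minus tTreg -4.42 ± 0.15 SE, adjusted p = 2.61e-12). After activation, tTregs exceeded Tconvs by 3.69 ± 0.15 (SE, adjusted p = 4.85e-11). Activation lowered Phlpp1 in tTregs by 0.88 (log2 fold change -0.88 ± 0.15 SE, adjusted p = 4.90e-04) and in Tconvs by a log2 fold change of -0.75 ± 0.15 (SE, adjusted p = 4.87e-04), and the difference between these responses was 0.13 (adjusted p = 0.66).

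Resting iTregs held 82.2, 69.6 and 87.3 normalized counts of Phlpp1, below resting Tconvs in every library, with a difference of -0.60 ± 0.15 (SE, adjusted p = 0.0021). Restimulated iTregs ranged from 59.0 to 68.5, below every resting and every inhibitor-treated iTreg library. The inhibitor-treated libraries ranged from 69.8 to 82.7. The difference was -0.33 on restimulation, and 0.33 with the ORAI inhibitor and 0.24 with CsA relative to restimulated iTregs. Each was under the fold threshold, and no comparison among the iTreg groups called Phlpp1. The 4 B cell markers also stood higher in tTregs, summing to 128 to 136 at rest and 89.0 to 135 after activation against 15.99 to 44.3 in the other 18 libraries. This was mostly Cd79b, and the defining B cell gene Ms4a1 was at 0 in every tTreg library. Their part in the Phlpp1 difference was not tested. The Treg gene Ikzf2 averaged 9403 in resting and 6716 in activated tTregs and 131 to 195 in the other groups.

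Ddit4, a stress-induced protein that activates the TSC complex and so restrains mTORC1, was lowest in resting Tconvs and highest in iTregs. Resting Tconvs held 18.5, 9.38 and 11.4 normalized counts and activated Tconvs 66.4, 100.0 and 41.0. Every activated library exceeded every resting one, and the rise was 2.28 ± 0.38 (SE, adjusted p = 9.88e-05). In tTregs the values were 35.4, 53.2 and 62.6 at rest and 141, 71.9 and 83.6 after activation. Those tTreg groups did not overlap, yet the difference of 0.94 ± 0.38 (SE, adjusted p = 0.069) was not called with this spread. At rest, tTregs exceeded Tconvs by 1.88 ± 0.38 (SE, adjusted p = 7.51e-04). The lowest resting Tconv library held 10 reads of Ddit4, so fold changes against that group rest on few reads.

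Resting iTregs held 301, 418 and 185 normalized counts of Ddit4, on average 23-fold above resting Tconvs. The difference was 4.40 ± 0.38 (SE, adjusted p = 5.85e-08) from resting Tconvs, 2.12 ± 0.38 (SE, adjusted p = 2.48e-04) from activated Tconvs and 2.52 ± 0.38 (SE, adjusted p = 2.58e-05) from resting tTregs. The values were 257, 322 and 192 in restimulated iTregs, 202, 216.5 and 137 with the ORAI inhibitor and 306, 315 and 199 with CsA. In all 4 iTreg groups the library numbered 3 was the lowest and that numbered 2 the highest. The restimulation difference was -0.19 (95% interval -0.76 to 0.39, adjusted p = 0.65), an interval that spans changes in either direction. Proliferation markers moved in the same direction as Ddit4 between resting Tconvs, activated Tconvs and iTregs, and their part was not tested.

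Tsc1, a subunit of the TSC complex, fell on activation of both Tconvs and tTregs and was lowest in iTregs. Resting Tconvs held 498, 463 and 547 normalized counts and activated Tconvs 299, 318 and 306, a change of -0.70 ± 0.13 (SE, adjusted p = 2.11e-04). Resting tTregs held 684, 615 and 590.0 and activated tTregs 361, 464.5 and 365, a change of -0.67 ± 0.13 (SE, adjusted p = 0.0011). Resting and activated libraries did not overlap in either cell type. Without the libraries numbered 1 the tTreg change was -0.55, adjusted p = 0.053, no longer past the threshold. Resting iTregs held 179, 149 and 205, below every Tconv and tTreg library. Their difference was -1.50 ± 0.13 (SE, adjusted p = 4.82e-08) from resting Tconvs, -0.80 (adjusted p = 8.79e-05) from activated Tconvs and -1.83 (adjusted p = 6.10e-09) from resting tTregs. The 12 iTreg libraries stayed between 149 and 229, and no comparison among the iTreg groups called Tsc1.

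The order of the group means placed the cell types differently for each member, with neighbours taken as apart where their 3 libraries did not overlap. Pik3cd was highest in activated Tconvs, then resting Tconvs, and the 6 Treg groups overlapped as neighbours. Pik3r1 descended from resting tTregs to activated tTregs to resting Tconvs without overlap, and the remaining 5 groups overlapped as neighbours. For Pik3ip1 resting Tconvs stood apart at the top and restimulated iTregs apart at the bottom, and activated Tconvs did not overlap resting iTregs between them. Inpp4b descended without overlap from resting tTregs to resting Tconvs to activated Tconvs, which overlapped activated tTregs, and the iTreg groups lay below. Akt1 had the 4 iTreg groups at the top, with restimulated iTregs apart below the other 3, and the Tconv and tTreg groups overlapped as neighbours beneath them. Akt2 had activated Tconvs apart at the top and 7 groups below that overlapped as neighbours. Phlpp1 descended without overlap from resting tTregs to activated tTregs to resting Tconvs, and the other 5 groups overlapped as neighbours. Ddit4 overlapped between all neighbours except at the bottom, where resting Tconvs lay apart. Tsc1 descended from resting tTregs to resting Tconvs, which overlapped activated tTregs, then to activated Tconvs. Below them the 4 iTreg groups overlapped as neighbours.

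Levels of different genes were compared per kilobase of annotated exon. On this scale Pik3ip1 was the most abundant member in resting Tconvs at 1261 ± 67.5 normalized counts per kb (SD, n = 3), above Pik3cd at 722 ± 26.7 and Inpp4b at 576 ± 47.4. In activated Tconvs Pik3cd led at 925 ± 31.9 and Pik3ip1 stood at 150.5 ± 10.8. In resting tTregs Inpp4b led at 907 ± 123, and Phlpp1 reached 255 ± 13.0, above Pik3ip1 at 170.4 ± 58.6. In resting iTregs Pik3cd led at 493 ± 44.6, followed by Inpp4b at 225 ± 19.8 and Akt1 at 220.3 ± 23.6. Between the AKT genes, Akt2 was above Akt1 per kb in resting Tconvs (166 ± 9.51 against 87.2 ± 7.72). The mean of Akt1 was the higher in resting iTregs (220.3 ± 23.6 against 192 ± 17.8), where the libraries of these genes overlapped, and the lower in restimulated iTregs (169.9 ± 10.7 against 209.8 ± 7.42). These values treat all annotated exon bases as expressed.

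**Figure D3:**
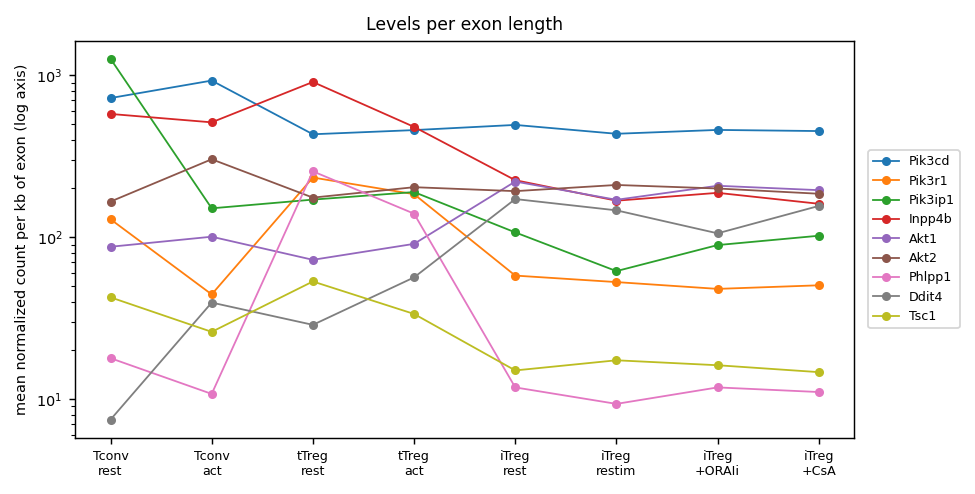
Mean normalized count per kb of exon (log axis) of the 9 transcripts in the 8 groups (labels as in the plot by library). Lines join the means of 1 gene across unordered groups. Pik3ip1 led in resting Tconvs (1261), Inpp4b in resting tTregs (907) and Pik3cd in all 4 iTreg groups.

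The 9 members differed widely in how much they varied. The range of group means was 4.75 on the log2 scale for Phlpp1, 4.40 for Ddit4 and 4.35 for Pik3ip1, wider than for most genes: 6.85%, 8.46% and 8.67% of the 11725 genes tested had wider ranges. Inpp4b (2.49), Pik3r1 (2.40) and Tsc1 (1.85) followed, and Akt1 (1.61), Pik3cd (1.10) and Akt2 (0.87) were near or below the median range over all genes of 1.47. The transcripts whose log2 values followed Phlpp1 most closely over the 24 libraries were Ikzf2 (Pearson r = 0.99), Ptpn13 (0.99) and Ntn4 (0.99). For the other members the closest were AI467606 for Pik3ip1 (0.98), Tcf12 for Inpp4b (0.99), Arhgap31 for Pik3r1 (0.99) and Impa2 for Ddit4 (0.97). They were 4932438A13Rik for Tsc1 (0.98), Mtch1 for Akt1 (0.98), Tapbp for Akt2 (0.92) and Scg2 for Pik3cd (0.92). Ntn4 averaged 32.1 and 18.2 normalized counts in resting and activated tTregs and was listed at 0 in the other 18 libraries. Scg2 averaged 18.05 in activated Tconvs, 2.81 in resting Tconvs and at most 0.351 in the Treg groups. Both passed the filter on low values through the groups where they were high, so their coefficients rest mostly on values at or near 0. All these coefficients are descriptive, since the libraries fall into 8 groups and each gene pair shares them.

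On activation of Tconvs, Pik3ip1, Pik3r1, Phlpp1 and Tsc1 were called lower and Ddit4 and Akt2 higher. This was 6 of 9 members called, where 50.2% of all 11495 genes were called in that comparison. Here and below, a count of members near the share of all genes called is no result about the members. Inpp4b, Pik3cd and Akt1 were not called. The median log2 fold change of the members was -0.17, against -0.04 over all genes. In tTregs Inpp4b, Phlpp1 and Tsc1 were called lower on activation, 3 of 9 members, with 21.9% of all genes called. The member median was 0.08 there, against 0.00 over all genes. These responses differed in 4 of 9 members (Pik3ip1, Pik3r1, Inpp4b and Akt2), with 34.7% of all genes called for a difference in response. The log2 differences, Tconv minus tTreg, were -3.24, -1.20, 0.75 and 0.65. Both members called in each cell type on its own, Phlpp1 and Tsc1, fell in both.

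**Figure D4:**
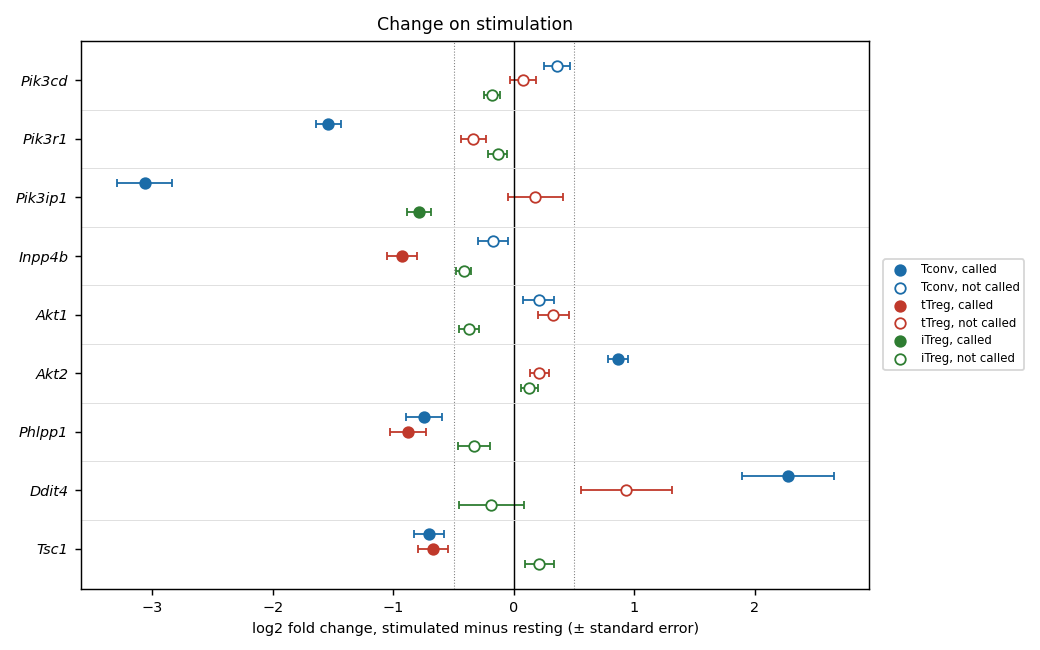
Log2 fold change on stimulation of the 9 transcripts in Tconvs, tTregs and iTregs (stimulated minus resting, points with ± 1 standard error; filled where called, dotted lines at ± 0.5). In Tconvs 6 members were called (50.2% of all genes), in tTregs 3 (21.9%) and in iTregs 1, Pik3ip1 (12.8%). Counts near these shares are no result about the members.

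On restimulation of iTregs only Pik3ip1 was called, lower, 1 of 9 members, where 12.8% of all 11105 genes were called. Inpp4b (-0.42) and Akt1 (-0.37) were also lower with adjusted p below 0.05 but missed the fold threshold. The member median was -0.19, against -0.01 over all genes. Compared directly with the Tconv response, the iTreg response differed in 7 of 9 members, and 44.2% of all 11725 genes were called for that difference. The log2 differences, iTreg minus Tconv, were higher for Pik3ip1 (2.28), Pik3r1 (1.41) and Tsc1 (0.92). They were lower for Ddit4 (-2.46), Akt2 (-0.74), Akt1 (-0.58) and Pik3cd (-0.54). The calls for Akt1 and Pik3cd were lost without the libraries numbered 3, at -0.46, adjusted p = 0.11 for Akt1 and -0.41, adjusted p = 0.027 for Pik3cd.

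Compared with the tTreg response, the iTreg response differed in 5 of 9 members, with 21.3% of all genes called. The log2 differences, iTreg minus tTreg, were -0.96 for Pik3ip1 (adjusted p = 0.014) and -0.70 for Akt1 (adjusted p = 0.0020). They were 0.89 for Tsc1 (adjusted p = 3.93e-04), 0.55 for Phlpp1 (adjusted p = 0.039) and 0.51 for Inpp4b (adjusted p = 0.012). Without the libraries numbered 1, 0 of these 5 calls remained, with Pik3ip1 at -0.54, adjusted p = 0.20, Akt1 at -0.60, adjusted p = 0.061, Tsc1 at 0.69, adjusted p = 0.054, Phlpp1 at 0.48, adjusted p = 0.23 and Inpp4b at 0.19, adjusted p = 0.34. Phlpp1 was also lost without the libraries numbered 2 (0.35, adjusted p = 0.38). Without the libraries numbered 3 the Pik3ip1 difference was -0.999, adjusted p = 0.059 and that of Akt1 was -0.56, adjusted p = 0.079.

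At rest, tTregs differed from Tconvs in 6 of 9 members, where 38.6% of all genes were called. Phlpp1, Ddit4, Pik3r1 and Inpp4b were higher in tTregs, and Pik3ip1 and Pik3cd were lower. Tsc1 differed by 0.32 (adjusted p = 0.045), under the fold threshold. Between activated tTregs and activated Tconvs, 4 of 9 members were called, where 48.2% of all genes were. Phlpp1 and Pik3r1 were higher in tTregs, and Pik3cd and Akt2 (-0.57 ± 0.08 SE, adjusted p = 2.90e-05) were lower. The member medians were 0.32 at rest and 0.29 after activation, against -0.02 and 0.04 over all genes.

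Resting iTregs differed from resting Tconvs in 8 of 9 members, with 63.6% of all genes called. Pik3ip1, Tsc1, Inpp4b, Pik3r1, Phlpp1 and Pik3cd were lower in iTregs, Akt1 and Ddit4 were higher, and Akt2 was not called. From activated Tconvs they differed in 6 of 9 members, with 41.6% of all genes called, and the direction was lower for Inpp4b, Pik3cd, Tsc1 and Akt2 and higher for Akt1 and Ddit4. From resting tTregs they differed in 7 of 9 members, with 63.4% of all genes called, and only Akt1 and Ddit4 of these 7 were higher in iTregs. The member medians were -0.60, -0.50 and -0.61 in that order, each against 0.02 over all genes.

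**Figure D5:**
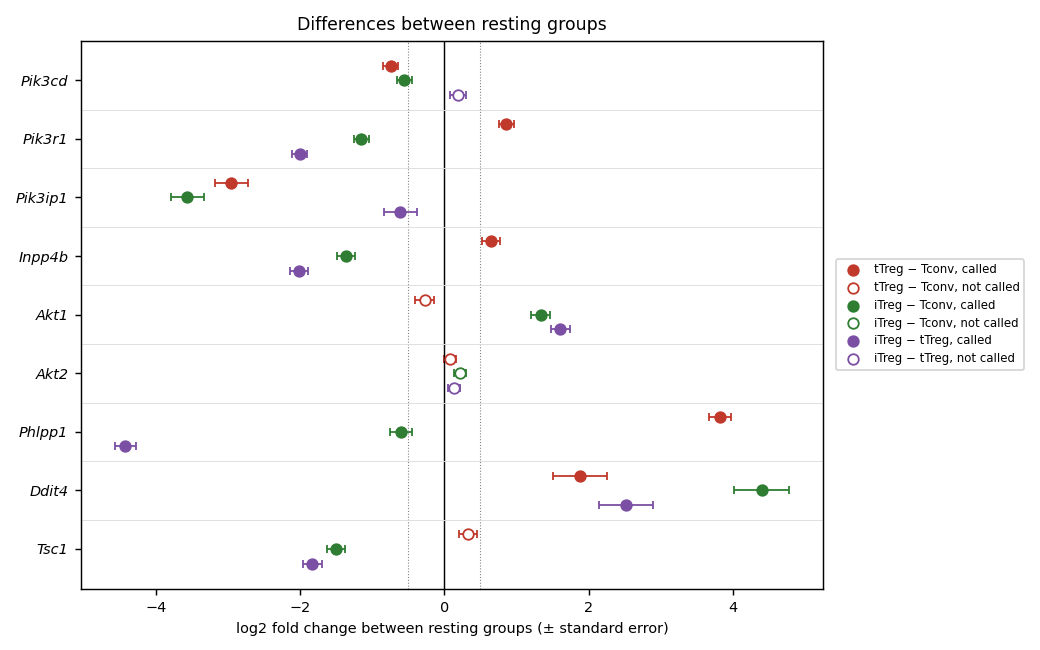
Log2 fold change between resting groups for the 9 transcripts (points with ± 1 standard error; filled where called, dotted lines at ± 0.5). Phlpp1 was higher in tTregs than in Tconvs (3.82) and lower in iTregs than in tTregs (-4.42), and Ddit4 was highest in iTregs.

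With each inhibitor 1 of 9 members, Pik3ip1, was called higher than in restimulated iTregs. For the ORAI inhibitor 3.30% of all genes were called, and for CsA 2.92%. Akt1 was also higher with the ORAI inhibitor (0.29, adjusted p below 0.05) but missed the fold threshold. Between the inhibitors limma called 0 of 9 members, where 0.360% of all genes were called. edgeR and DESeq2 on recovered reads also called 0 members, though not every alternative fit in the last section did. In limma 1 of 9 (Inpp4b) had an unadjusted p below 0.05. The 95% interval of the ORAI inhibitor minus CsA difference was -0.40 to 0.02 for Pik3ip1, 0.09 to 0.35 for Inpp4b and -1.13 to 0.02 for Ddit4. With 3 libraries each, this does not show that the inhibitors act alike.

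The rest of the pathway was described with 7 gene lists that left out the 9 members. On activation of Tconvs, transcripts linked to FOXO1 in T cells had 1 higher and 6 lower of 8 tested. Their list median was -2.05, against -0.04 over all genes. Among the lower ones were Il7r, the interleukin-7 receptor chain, at -4.99, and the transcriptional repressor gene Bcl6 at -3.16. S1pr1, a receptor for exit from lymphoid tissue, was at -3.03. The list does not separate genes that FOXO1 raises from genes that it lowers, so it gives no reading of FOXO1 activity. Other PI3K subunits had 0 higher and 4 lower of 7, led by Pik3cg (-1.37). Lipid phosphatases had 1 higher and 3 lower of 8, with Inpp4a at -1.04. AKT and its kinases and phosphatases had 1 higher and 6 lower of 10, with Trib2 at -1.55. AKT substrates had 0 higher and 3 lower of 7, led by Tbc1d4 (-1.95). Brakes upstream of mTORC1 were split, with 4 higher and 4 lower of 12: the sestrin gene Sesn1 was at -2.40 and the stress-induced Sesn2 at 1.68. mTORC1 and its targets had 2 higher and 1 lower of 8, led by Eif4ebp1, a translation repressor that mTORC1 inactivates, at 2.32. The 50.2% of all genes called is the background for these counts.

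On activation of tTregs, with 21.9% of all genes called, lipid phosphatases had 0 higher and 4 lower of 8, including Inpp4a (-0.71), beside the member Inpp4b. FOXO1-linked transcripts had 1 higher and 4 lower of 8, with Bcl6 at -1.58 and Il7r at -0.91. Other PI3K subunits had 0 higher and 0 lower of 7, AKT with its kinases and phosphatases 0 higher and 2 lower of 10, and AKT substrates 0 higher and 2 lower of 7 with Foxo1 at -0.71. Brakes upstream of mTORC1 had 1 higher and 0 lower of 12, Castor1 at 0.59. mTORC1 and its targets had 2 higher and 0 lower of 8, Eif4ebp1 at 1.34 and Rheb at 0.98.

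On restimulation of iTregs, with 12.8% of all genes called, FOXO1-linked transcripts had 0 higher and 3 lower of 8. These were Klf2 (-2.02), a regulator of T cell quiescence and trafficking, S1pr1 (-0.71) and Il7r (-0.70). The pseudokinase genes Trib2 (-1.26) and Trib3 (-1.10) fell among 10 genes tested around AKT. Brakes upstream of mTORC1 had 2 higher and 1 lower of 13, with Sesn3 at 0.90 and Sesn1 at -0.63. Other PI3K subunits had 1 higher and 1 lower of 5, and mTORC1 with its targets and the AKT substrates had 0 called. With the ORAI inhibitor, Eif4ebp1 (-0.50 relative to restimulated iTregs) was the only gene called in the 7 lists. It was 1 of 8 tested in its list, where 3.30% of all genes were called. With CsA, Trib2 (0.56), 1 of 10 tested in its list, and Il7r (0.62), 1 of 8, were called higher. There 2.92% of all genes were called. The remaining lists had 0 called, and a count of 1 gene is no result about its list.

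In resting iTregs all 8 FOXO1-linked transcripts were lower than in resting Tconvs. The list median was -2.58, with Il7r at -4.21, S1pr1 at -3.40 and Klf2 at -3.18. The background was 63.6% of all genes called. Genes typical of naive T cells moved in the same direction: Lef1, which is outside that list, averaged 9301 normalized counts in resting Tconvs and 1670.2 in resting iTregs, and Ccr7, which is in it, averaged 18729 and 11284. Their part in the list's difference was not tested. Lipid phosphatases had 2 higher and 5 lower of 8, AKT with its kinases and phosphatases 2 higher and 5 lower of 10 with Trib2 at -3.87, and AKT substrates 1 higher and 3 lower of 7 with Tbc1d4 at -4.56. Brakes upstream of mTORC1 had 3 higher and 5 lower of 12, with Sesn1 at -3.12 and Sesn2 at 3.10, and mTORC1 with its targets had 2 higher and 2 lower of 8, with Eif4ebp1 at 3.37. Other PI3K subunits had 2 higher and 3 lower of 7, with Pik3r5 at -1.88. In resting tTregs against resting Tconvs, with 38.6% of all genes called, FOXO1-linked transcripts had 1 higher and 5 lower of 8. Lipid phosphatases had 3 higher and 1 lower of 8, led by Mtmr3 (2.58) and Inppl1 (2.07). Brakes upstream of mTORC1 had 4 higher and 3 lower of 12, led by Sesn2 (1.72), and AKT substrates had 2 higher and 0 lower of 7, Foxo4 (1.36) and Foxo3 (0.85). Other PI3K subunits had 0 higher and 1 lower of 7, AKT with its kinases and phosphatases 1 higher and 1 lower of 10, and mTORC1 with its targets 2 higher and 2 lower of 8. In resting iTregs against resting tTregs, with 63.4% of all genes called, lipid phosphatases had 0 higher and 6 lower of 8. FOXO1-linked transcripts had 1 higher and 5 lower of 8 and AKT substrates 1 higher and 4 lower of 7. Other PI3K subunits had 2 higher and 4 lower of 7, AKT with its kinases and phosphatases 0 higher and 3 lower of 10, brakes upstream of mTORC1 3 higher and 3 lower of 12, and mTORC1 with its targets 4 higher and 2 lower of 8. Shares of a list called near the share of all genes called are no result about that list.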

How the data were processed

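RNA-seq was measured by SMART-seq2, a full-length method that amplifies cDNA over 22 PCR cycles and does not keep the strand. The authors trimmed reads with cutadapt 1.18, aligned them to mm10 with STAR 2.5.3, estimated reads per gene with RSEM 1.3.0 on GENCODE M23, and divided each library by 1 DESeq2 (1.26) size factor. The deposited signal values are these normalized counts. Dividing by the smallest value above 0 in a library gave whole reads for 100.0% of values within 0.01. The floor of 3 reads was worth 2.12 to 5.45 normalized counts, and intervals and floors cover counting error only where they rest on reads.

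Genes reaching 10 normalized counts in 3 or more libraries of a fit were tested with limma 3.58.1 (trend, empirical Bayes, two-sided) in R 4.3.3 on log2(value + 1), which understates changes of low genes. A fit of 15 libraries (Tconv, tTreg and resting iTreg; 11495 genes) served comparisons among these, a fit of 12 iTreg libraries (11105 genes) the restimulation and inhibitor comparisons, and a fit of all 24 (11725 genes) the differences in response involving iTregs and the order of levels. Adjustment was Benjamini-Hochberg over all genes of a fit. The test was checked on simulated data. edgeR 4.0.16 and DESeq2 1.42.0 on recovered reads, other scalings, filters, pseudocounts, thresholds and left-out libraries were alternatives. All 9 members are named, and of each pathway list at most 3 called genes with the largest change per comparison. The members and lists were chosen with earlier results of these data known. The other 16 samples of the series, of other assays, are not analysed here. Gene positions came from GENCODE M21, which is older than the annotation behind the counts. Some genes of the pathway and marker lists are not reported here.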

Additional observations from a re-analysis of the deposited data

Results flagged for a closer look

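For the members below the responses of a pair of cell types differed by limma's test of the difference between the responses with Benjamini-Hochberg adjustment. The values are differences of log2 fold changes. The Tconv response minus the tTreg response was -3.24 for Pik3ip1, 0.75 for Inpp4b, -1.20 for Pik3r1 and 0.65 for Akt2. The iTreg restimulation response minus the Tconv response was 2.28 for Pik3ip1, -0.54 for Pik3cd, 1.41 for Pik3r1, -0.58 for Akt1, -0.74 for Akt2, -2.46 for Ddit4 and 0.92 for Tsc1. The iTreg response minus the tTreg response was -0.96 for Pik3ip1, 0.55 for Phlpp1, 0.51 for Inpp4b, -0.70 for Akt1 and 0.89 for Tsc1. Without the libraries numbered 1, all 5 of these last calls were lost, with Pik3ip1 at -0.54 and Inpp4b at 0.19, and without those numbered 3 the Akt1 and Pik3cd calls of iTregs against Tconvs were lost. These comparisons share libraries, and the iTregs had already been stimulated once during induction.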

How the results depend on the processing

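Of 126 tests of members, 59 were called, and 48 of these calls held under every alternative except a log2 fold threshold of 1. The other 11 were lost under at least 1 of these, and 0 reversed direction. edgeR, other size factors and pseudocounts of 0.1 and 5 gave the same call in all 126. With the threshold of 1, the members called fell from 6 to 3 for Tconv activation, 3 to 0 for tTreg activation, 4 to 2 for the Tconv minus tTreg response, 6 to 3 for resting tTregs against Tconvs, 6 to 3 for resting iTregs against activated Tconvs, 1 to 0 for restimulation and for each inhibitor, 7 to 3 for the iTreg minus Tconv response and 5 to 0 for the iTreg minus tTreg response. By adjusted p alone, 3 were called on restimulation and 2 with the ORAI inhibitor. With 24 libraries in 1 fit the ORAI inhibitor call was lost (0). For the iTreg minus tTreg response the number of members called went from 5 to 2 in a fit of its own groups, 3 with DESeq2 and 0 to 5 with 1 library number left out (0 without number 1), and each number left out lost at least 1 of the 5 calls. For the ORAI inhibitor it was 0 to 1. The causes were not tested.

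Over all genes, the threshold of 1 changed the number called from 5774 to 3047 for Tconv activation, 2517 to 763 for tTreg activation, 3991 to 2046 for their difference, 4441 to 2268 and 5535 to 2794 for tTregs against Tconvs at rest and activated, 7314 to 4781, 4784 to 2566 and 7293 to 4750 for resting iTregs against resting Tconvs, activated Tconvs and resting tTregs, 1425 to 471 for restimulation, 366 to 98 and 324 to 81 for the ORAI inhibitor and CsA, 40 to 6 between them, and 5188 to 2857 and 2501 to 978 for the iTreg response against that of Tconvs and tTregs. Adjusted p alone gave 3994 for tTreg activation, 3264 for restimulation, 869 and 945 for the ORAI inhibitor and CsA, and 86 between them. A minimum of 100 gave 878 for restimulation and 213 for CsA.

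Fitting all 24 libraries at once gave 232 for the ORAI inhibitor, 187 for CsA and 10 between them. Leaving out the libraries numbered 1 or 2 gave 206 and 170 for the ORAI inhibitor, 132 and 124 for CsA, 10 and 4 between them, and leaving out number 1 gave 1520 for the iTreg minus tTreg response. Quantile normalization shifted the median of all genes by -0.14, -0.13 and -0.12 in the comparisons of resting iTregs with resting Tconvs, activated Tconvs and resting tTregs, and took the share of called genes that were higher from 55.1% to 42.5% in that with activated Tconvs. Groups share library numbers. Same-numbered libraries deviated together (correlation over 0.1) in 10 of 18 pairs among iTregs. This held for 6 of 30 pairs among the 15 libraries of Tconvs, tTregs and resting iTregs. A library correlated best with its own number in 26 of 36 and 26 of 60 cases. Among iTregs the mean correlation was 0.15 for same-numbered libraries and -0.08 for the others, so iTreg libraries tended to deviate by number. The labels do not say that the numbers pair samples, and the main fits did not pair them. With the number as a replicate block 1 member was called between the inhibitors, Ddit4 (-0.56, adjusted p = 0.0092), and the calls of the other 125 member tests did not change. With 3 libraries a group and 5256800 to 15685234 reads, small changes of Ddit4, with its few reads and wide spread, were the least detectable.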
